A study of Homo sapiens with 4 samples.

Results

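CD24 and 8 other surface or secreted proteins through which cells restrain or engage immune cells were examined with calumenin intact or depleted, in cells that the labels call HFL1, the name of an established line of fibroblasts from human fetal lung. Several transcripts that define fibroblasts were at or near 0 in all 4 libraries while keratins were abundant, so the marker levels given further on go against that name, and the cells are called by their WT and KO labels. The 9 genes are CD24, CD47, CD274, PDCD1LG2, CD276, PVR, NECTIN2, LGALS9 and CD44, found by symbol among the 58735 genes of the deposited table. The set was selected on the FPKM of CD24, which had been seen to be higher in the KO than in the WT libraries. The WT and KO levels of the 9 genes are therefore given as a description and without a test, and they support nothing beyond themselves.

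The study compared 2 libraries labelled WT with 2 labelled KO, and its design text describes knockout or knockdown of calumenin, a calcium-binding protein of the endoplasmic reticulum, to study senescence and fibrosis signalling. No other treatment, genotype or time is given in the labels, and how the KO cells were made, or whether they are a single clone, is not given in the sources used here. Separate cultures are not mentioned for the libraries of a group, and every p-value therefore reflects the spread among these 4 libraries alone, which may be technical. Values are FPKM, fragments scaled to gene length and to library size, from which 16173899 to 17715774 whole reads per library were recovered. CALU, which encodes calumenin, stood at 87.7 and 81.8 FPKM in WT and at 6.59 and 5.95 FPKM in KO.

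These genes act at the surface where a tissue cell meets leukocytes. CD24 is a small, heavily glycosylated protein held by a glycosylphosphatidylinositol (GPI) anchor, and its sialylated sugars bind Siglec-10 on macrophages. CD47 binds SIRP-alpha on phagocytes, and both pairs restrain engulfment. CD274 (PD-L1), PDCD1LG2 (PD-L2) and CD276 (B7-H3) belong to the B7 family that signals to T cells, PVR and NECTIN2 bind TIGIT and CD226 on T and natural killer (NK) cells, LGALS9 encodes the secreted lectin galectin-9, and CD44 is the main hyaluronan receptor. In epithelia and tumours CD24 and CD44 are also read as progenitor markers.

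The DNA just before the start of CD24 and of CD274 is shown first, because CD24 had by far the largest difference between the groups and CD274 is the member best known to answer interferon. RefSeq promoters (GRCh38.p14) matched 8 of the 9 genes, all but PDCD1LG2. The stretches are upstream of the gene start in the deposited table, on the gene's strand, 5′ to 3′. CD24 (chr6:106975628-106975877, minus strand) ends 1 base before the start, and capitals mark a match to the NF-kB consensus. CD274 (chr9:5450292-5450502, plus strand) has in capitals a pair of overlapping matches, on the opposite strand, to the core of the interferon-stimulated response element, followed by a match to the interferon-gamma activated site TTCNNNGAA.
CD24: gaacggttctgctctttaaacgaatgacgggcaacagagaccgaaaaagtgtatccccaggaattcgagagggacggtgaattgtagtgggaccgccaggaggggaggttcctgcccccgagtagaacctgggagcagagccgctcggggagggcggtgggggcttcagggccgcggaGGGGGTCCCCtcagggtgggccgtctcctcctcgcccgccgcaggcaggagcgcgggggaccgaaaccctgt
CD274: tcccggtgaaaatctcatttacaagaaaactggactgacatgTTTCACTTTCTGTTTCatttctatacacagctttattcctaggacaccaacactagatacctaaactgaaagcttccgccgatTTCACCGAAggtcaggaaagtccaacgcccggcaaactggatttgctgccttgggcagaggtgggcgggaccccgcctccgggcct

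Both strands of the 250 bases before each RefSeq start were searched, and matches are descriptions of letters, not of bound sites. The NF-kB consensus was present in 5.21% of 35116 such windows, the response element core in 3.02% and the activated site in 6.57%. CD24 has 3 RefSeq starts, and the same NF-kB match lies 72 bases before the first and 234 before the second. Of the other searched members' windows, none held these 3 motifs, and PDCD1LG2 was not searched. The RefSeq starts of CD44, CD47, CD276 and LGALS9 lay inside the genes as deposited, by 301 bases for CD44 to 1390 for LGALS9. Their windows, and that of the third start of CD24, therefore lay within the deposited genes. The TATAAA box, present in 10.7% of windows, was found in none of the members' windows. The hypoxia elements ACGTG or GCGTG, present in 43.2% of windows, matched 4 times before CD47, 3 times before NECTIN2, once before CD44, once before 1 of 2 starts of CD276 and once before the third start of CD24, and not before CD274, PVR or LGALS9.

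CD24 was the most altered of the set. Its level was 22.8 and 36.2 FPKM in WT replicates 1 and 2 and 513 and 447 FPKM in KO replicates 1 and 2. Both KO libraries were far above both WT libraries, while the WT libraries also differed from each other by 0.64 on the log2(FPKM + 1) scale, against 0.20 between the KO libraries. The mean FPKM was 29.5 ± 9.44 for WT and 479.9 ± 47.1 for KO (SD of n = 2 in each group), a ratio of 16.3 that ranged from 13.3 to 21.03 when each library was left out. On the log2(FPKM + 1) scale the difference was 4.01 (SE 0.25), and 2 of 14100 tested genes had a larger positive one. By mean FPKM over the whole table CD24 ranked 1248 in WT and 46 in KO.

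CD24 (ENSG00000272398) lies on chromosome 6 from 106969831 to 106975627, on the minus strand of GRCh38, with no overlapping gene in the table. WT replicates 1 and 2 held 1290 and 1836 of its reads, KO replicates 1 and 2 held 27838 and 22661. The gene has 3 processed pseudogene copies in the table, the closest at 99.2% identity over 243 bases of a CD24 transcript, so counting could split reads between them. The copies held at most 0.354% of the reads of CD24 and copies together in any library, and the KO to WT ratio with those reads added was 16.3. The annotation lists 8 CD24 transcripts, which gene values do not tell apart.

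**Figure D1:**
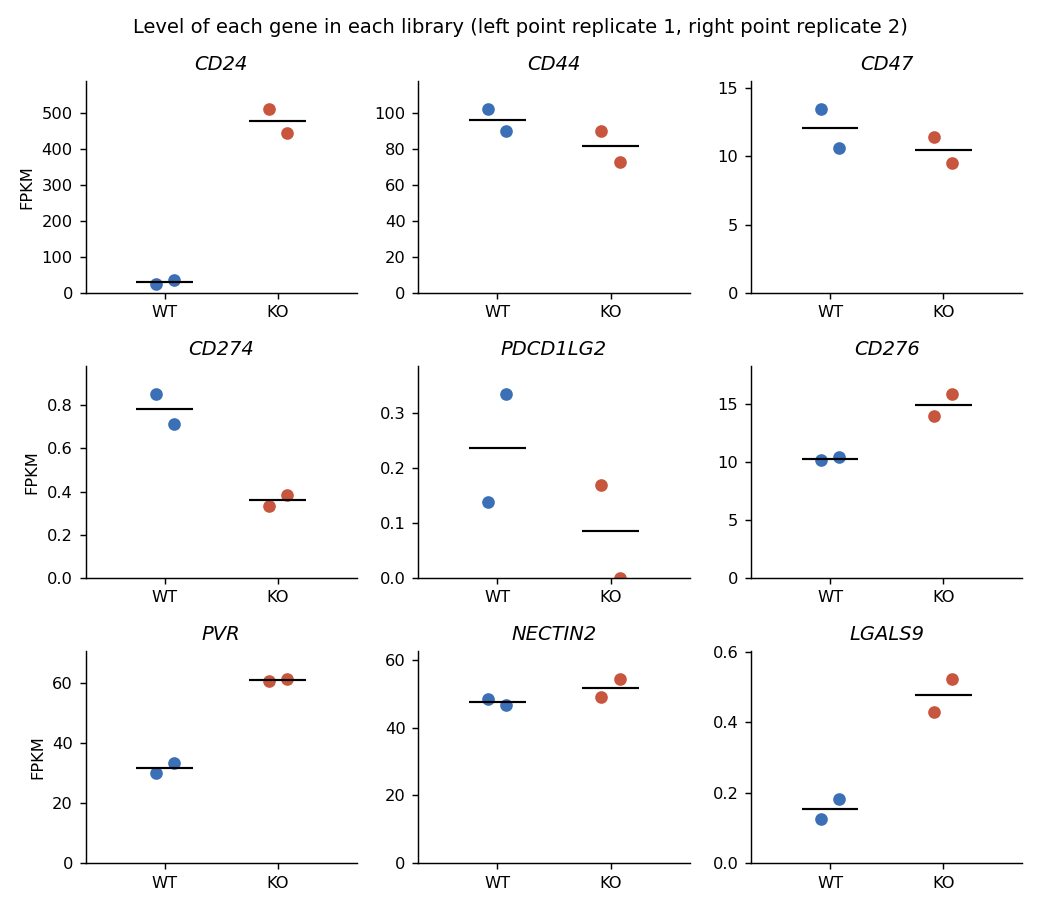
FPKM of each of the 9 genes in the WT (blue) and KO (red) libraries, with a bar at the group mean (n = 2 per group, left point replicate 1, right point replicate 2) and each vertical axis starting at 0. CD24 stands at 22.8 and 36.2 FPKM in WT against 513 and 447 FPKM in KO, whereas the WT and KO points of CD44, CD47 and PDCD1LG2 overlap.

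CD47, the other signal against engulfment, showed no such separation. It stood at 13.5 and 10.6 FPKM in WT and at 11.4 and 9.49 FPKM in KO, and the ranges of the groups overlapped. The means were 12.1 ± 2.05 and 10.5 ± 1.37 FPKM (SD of n = 2 in each group), a log2 difference of -0.19 (SE 0.17). The gene (ENSG00000196776) lies on chromosome 3 from 108043094 to 108091862, minus strand.

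Of the B7 family members, CD276 was the abundant one and CD274 and PDCD1LG2 were scarce. CD276 (ENSG00000103855, chromosome 15 from 73683966 to 73714518, plus strand) stood at 10.2 and 10.4 FPKM in WT and at 14.001 and 15.9 FPKM in KO. Both KO libraries were above both WT libraries, with means of 10.3 ± 0.179 and 14.96 ± 1.35 FPKM, a ratio of 1.45 and a log2 difference of 0.50 (SE 0.14). CD274 (ENSG00000120217, chromosome 9 from 5450503 to 5470566, plus strand) stood at 0.854 and 0.713 FPKM in WT and at 0.334 and 0.386 FPKM in KO. These levels rest on 64 and 48 reads in WT and 24 and 26 in KO, and both KO libraries were below both WT libraries, with a ratio of means of 0.46. PDCD1LG2 (ENSG00000197646), which starts 40003 bases after the end of CD274 (chromosome 9 from 5510570 to 5571254, plus strand), had 6 and 13 reads in WT and 7 and 0 in KO. A count of 0 allows up to 0.0774 FPKM at 3 reads, and the groups overlapped. The ratio of means of PDCD1LG2 moved from 0.36 to 0.25 without WT replicate 1, to 0.61 without WT replicate 2 and to 0.71 without KO replicate 2. Without KO replicate 1 only the KO library with 0 reads was left, and no ratio is given.

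The TIGIT ligands PVR and NECTIN2 were both well expressed and differed from each other in their KO levels. PVR (ENSG00000073008, chromosome 19 from 44643798 to 44663583, plus strand) stood at 30.1 and 33.2 FPKM in WT and at 60.5 and 61.3 FPKM in KO. Its KO libraries lay close together and above both WT libraries, with means of 31.6 ± 2.18 and 60.9 ± 0.571 FPKM, a ratio of 1.93 and a log2 difference of 0.93 (SE 0.14). NECTIN2 (ENSG00000130202, chromosome 19 from 44846175 to 44889228, plus strand), whose start lies 182.6 kilobases beyond the end of PVR, stood at 48.4 and 46.6 FPKM in WT and at 48.9 and 54.4 FPKM in KO. The gap between its groups was smaller than that between its KO libraries, and the log2 difference was 0.12 (SE 0.14). PVR shares 1306 bases with CEACAM19 on the same strand, so reads there are uncertain. CEACAM19 stood at 7.04 and 6.98 FPKM in WT and at 7.71 and 7.53 FPKM in KO.

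LGALS9 and CD44 sat at opposite ends of abundance. LGALS9 (ENSG00000168961, chromosome 17 from 27629798 to 27649560, plus strand) had 13 and 17 reads in WT and 43 and 49 in KO, or 0.125 and 0.182 against 0.430 and 0.523 FPKM, a ratio of means of 3.11. Its related copy LGALS9B had 9 and 25 reads in WT and 0 and 1 in KO. With the reads of LGALS9B and LGALS9C added, the ratio was 1.36, so the value for LGALS9 depends on how reads were divided among copies that align to it at 95.9% and 93.1% identity. CD44 (ENSG00000026508, chromosome 11 from 35138870 to 35232402, plus strand) stood at 102 and 89.7 FPKM in WT and at 90.2 and 72.8 FPKM in KO. The groups overlapped, with means of 95.99 ± 8.95 and 81.5 ± 12.3 FPKM and a log2 difference of -0.24 (SE 0.18). The annotation lists 39 CD44 transcripts, and gene values do not show the splice forms by which CD44 is usually classified.

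The order of levels differed between the groups in several places, of which that of CD24 was the largest step in level. In WT, CD44 was highest, followed by NECTIN2, PVR, CD24, CD47, CD276, CD274, PDCD1LG2 and LGALS9, and the neighbours PVR and CD24, and PDCD1LG2 and LGALS9, overlapped between libraries. In KO, CD24 stood first at 5.89 times the mean of CD44, followed by PVR, NECTIN2, CD276, CD47, LGALS9, CD274 and PDCD1LG2, with no neighbours overlapping. CD24 passed CD44, NECTIN2 and PVR. Among the other 8 genes, PVR passed NECTIN2, CD276 passed CD47, and LGALS9 passed CD274 and PDCD1LG2. CD24 made up 12.9% of the summed mean FPKM of the 9 genes in WT and 68.5% in KO. Without CD24 the sums were 199 and 220.4 FPKM.

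**Figure D2:**
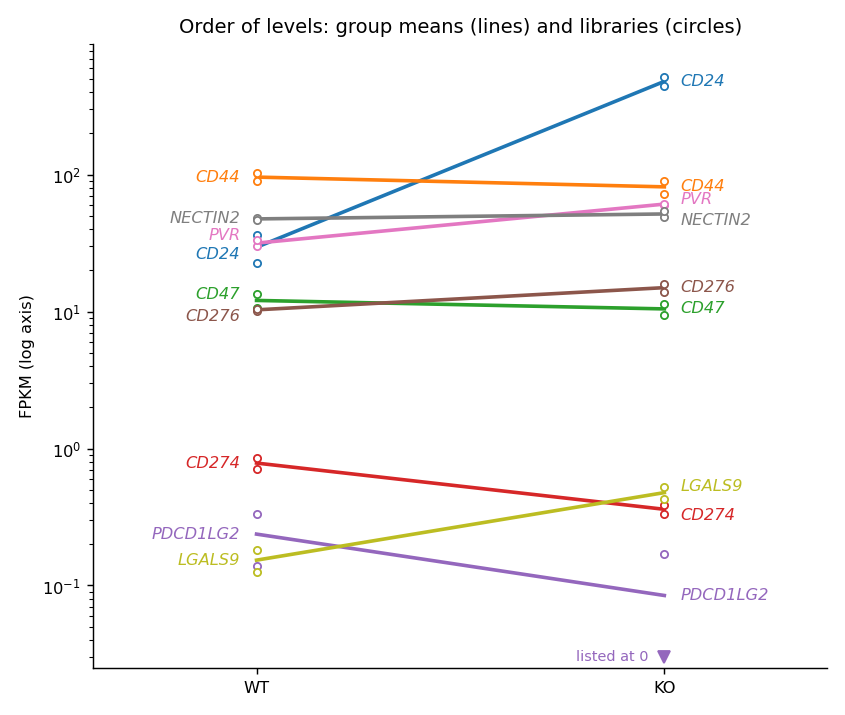
Mean FPKM of the 9 genes in WT and KO (lines join group means, circles are libraries, log axis, and the triangle marks the KO library in which PDCD1LG2 is listed at 0). CD24 moves from the fourth to the first place, while CD44, NECTIN2, PVR, CD276 and CD47 stay between 9.49 and 102 FPKM.

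In the fit across all genes (limma on log2(FPKM + 1), Benjamini-Hochberg adjusted p under 0.05), 6 of the 9 members passed the filter of 1 FPKM in 2 libraries, and CD274, PDCD1LG2 and LGALS9 did not. Over all tested genes 12.1% passed the threshold upward and 11.1% downward. No call is given for the members, because their choice rested on the rise of CD24. Both KO libraries were above both WT libraries for 4 of the 6, as for 34.4% of all tested genes, and below for 0, as for 31.3%. CD24 set the choice of members, so nothing is read from these counts. The median log2 difference was 0.03 over all tested genes, and with 2 libraries against 2 an exact two-sided permutation test of a single gene cannot go below p = 0.333.

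**Figure D3:**
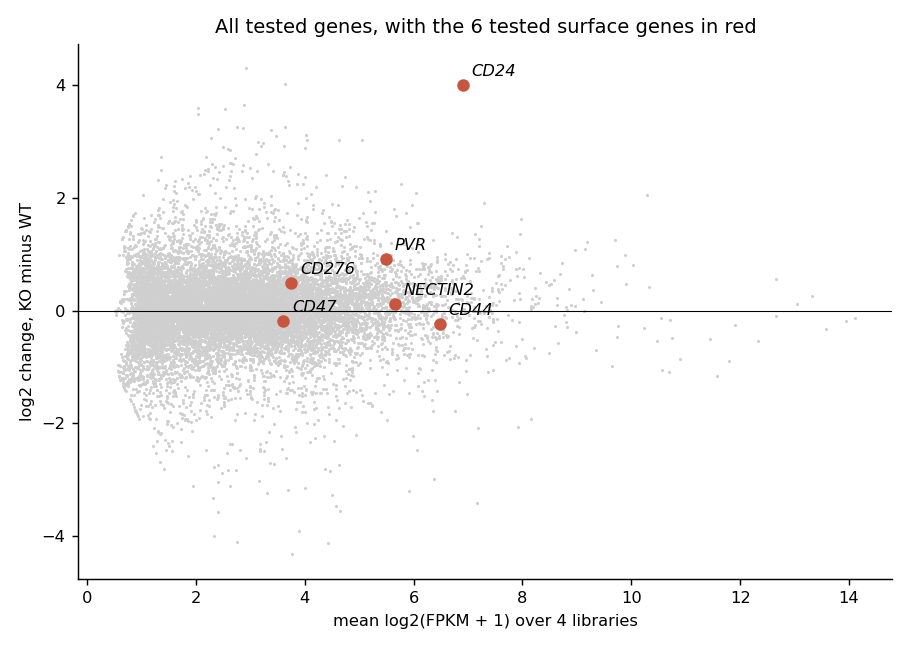
Log2 difference, KO minus WT, against mean log2(FPKM + 1) over the 4 libraries for the 14100 tested genes (grey), with the 6 tested members in red. CD24 lies at 4.01, PVR at 0.93, and the other 4 between -0.24 and 0.50.

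The cells were checked against markers, since CD24 also marks epithelial cells. COL1A2, DCN and FAP, which define fibroblasts, had at most 0.00871 FPKM, PDGFRA at most 0.186 FPKM, and in all 4 libraries 8 of 13 fibroblast markers were under 1 FPKM. These levels go against the labelled cell type. Of the 5 tested, COL1A1 and FBLN1 rose, TWIST2 fell, and S100A4 and THY1 had no call (limma adjusted p under 0.05). The 13 markers summed to 952 to 1372 FPKM in WT and 471 to 746 FPKM in KO, nearly all of it S100A4, which other cell types also express. Of 12 epithelial markers, 8 were tested, of which CDH1, KRT8, KRT18 and KRT19 rose and CLDN4 fell (limma adjusted p under 0.05). The summed level of the 12 was 1041 to 1180 FPKM in WT and 1922 to 2295 FPKM in KO, most of it KRT8, KRT18 and KRT7. The sum was thus higher in KO, as CD24 was, but it describes these keratins more than the list. EPCAM, a defining epithelial gene, stayed at 1.57 to 2.04 FPKM, and KRT5, SFTPC, SCGB1A1 and ESRP1 at or below 0.21 FPKM in every library. Of 12 leukocyte markers 11 stayed below 1 FPKM, with CD3E, CD3D, MS4A1 and TYROBP at 0 reads and PTPRC at most 0.0239 FPKM, and all 8 endothelial markers did. The other leukocyte marker, CD14, fell from 19.4 and 16.9 FPKM in WT to 5.84 and 6.41 FPKM in KO, and the 12 summed to 19.04 to 21.1 FPKM and 6.20 to 7.24 FPKM. Mural markers summed to 9.92 to 9.97 FPKM in WT and 6.06 to 6.13 in KO, and mesothelial markers to 47.9 to 50.3 and 58.4 to 64.9 FPKM. The part of any of these in the CD24 difference was not tested, and a change in the share of cells with CD24 cannot be told apart from a change per cell.

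The remaining genes come from lists of related function and are not members, and each was taken from the fit across all genes. Their counts stand against 12.1% of all tested genes that rose and 11.1% that fell, and with 3 to 27 tested genes a list, shares near these say nothing particular about a list. The lists were chosen with earlier results of these data known, so the shares are descriptions and support no claim about a list. Among 13 other genes of the B7 and butyrophilin families, 7 were tested, 2 fell (28.6%) and 0 rose, with a median log2 change of -0.14. VSIR, the inhibitory ligand VISTA, fell from 21.5 ± 0.356 to 9.44 ± 0.0516 FPKM (SD of n = 2 in each group, log2 -1.11, SE 0.13, adjusted p = 0.00574 by limma). NCR3LG1, the ligand of the NK receptor NKp30, was 2.22-fold lower. Its call was lost when any 1 library was left out (adjusted p = 0.0523 to 0.142).

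Other checkpoint and costimulatory genes were lower in KO where they passed. This list holds mainly ligands, but also receptors such as CD40 and enzymes such as NT5E. ICOSLG is also in the B7 list, and NT5E in the GPI-anchored and progenitor lists. Of 21 listed, 10 were tested, 6 fell (60.0%, against 11.1% of all tested genes) and 0 rose, with a median log2 change of -0.84. CD40, a costimulatory receptor, stood at 5.96 and 5.12 FPKM in WT and at 0.474 and 1.23 FPKM in KO, 6.49-fold lower (limma adjusted p = 0.00715, 11.7-fold without KO replicate 2). TNFSF9, a costimulatory ligand of the TNF family, stood at 61.8 and 53.9 FPKM against 16.2 and 20.5 FPKM, 3.15-fold lower (adjusted p = 0.00521). CEACAM6, an adhesion protein of the carcinoembryonic antigen family, was 3.84-fold lower, and its relative CEACAM5 stood at 1.16 and 1.17 FPKM in WT with 1 and 2 reads in the KO libraries. CEACAM5 passed the filter through its WT libraries alone, so it could be called only as a fall. With no filter on low values 2 genes of the list fell. Members of that family share sequence, so counting could split their reads.

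Among NK-activating ligands, 12 were listed and 9 tested, of which 4 fell (44.4%, against 11.1% of all tested genes) and 0 rose (against 12.1%), with a median log2 change of -0.31. ULBP1, a stress-induced ligand of the receptor NKG2D, fell from 9.02 ± 1.77 to 2.02 ± 0.104 FPKM (SD of n = 2 in each group, log2 -1.72, SE 0.17, adjusted p = 0.00436 by limma). ULBP2, of the same family, was 2.55-fold lower, a call that did not hold without WT replicate 1 (adjusted p = 0.05003). RAET1L, another of them, stood at 1.22 and 1.41 FPKM in WT and had 1 and 3 reads in KO. It passed the filter through its WT libraries alone, so it could be called only as a fall. With a filter at 5 FPKM 2 genes of the list fell, and with no filter on low values 1 did. NCR3LG1 belongs to this list as well.

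Among the 5 tested genes of 8 nectin relatives, 0 rose and 0 fell (limma adjusted p under 0.05), with a median log2 change of 0.44. NECTIN3, an adhesion partner of other nectins, stood at 11.4 and 8.92 FPKM in WT and at 18.9 and 12.6 FPKM in KO (limma adjusted p = 0.127). CADM1, a nectin-like adhesion molecule, stood at 4.04 ± 0.678 and 5.91 ± 0.0666 FPKM (adjusted p = 0.079). CADM4 stood at 8.28 and 12.02 FPKM (adjusted p = 0.319) and AFDN, the scaffold that ties nectins to actin, at 5.37 and 6.69 FPKM (adjusted p = 0.216).

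Of 15 other genes in the galectin list 7 were tested, 1 rose and 1 fell (14.3% each way, near the shares over all genes). LGALS1, galectin-1, stood at 78.7 and 99.98 FPKM in WT and at 189 and 342 FPKM in KO, a 2.97-fold rise (limma adjusted p = 0.0247), which was lost without WT replicate 1 (adjusted p = 0.102). LGALS3BP, a secreted galectin-binding glycoprotein and not itself a galectin, was 1.65-fold lower. Its call was lost without either WT replicate or without KO replicate 1 (limma adjusted p = 0.0782 to 0.215).

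Of 15 genes that govern engulfment, 11 were tested, 2 rose and 2 fell (18.2% each way, against 12.1% and 11.1% of all tested genes), with a median log2 change of 0.11. ANXA1, a phospholipid-binding protein, rose 2.42-fold, from 93.8 ± 14.1 to 227 ± 6.92 FPKM (SD of n = 2 in each group, limma adjusted p = 0.00896), a call that did not hold without WT replicate 2 (adjusted p = 0.0535). CALR, calreticulin, a chaperone that acts as an engulfment signal when exposed at the surface, rose 1.80-fold, while MFGE8, which bridges dying cells to phagocytes, was 2.17-fold lower and LRP1, the calreticulin receptor, 1.60-fold lower. CALR and LRP1 lost their calls without any 1 library (adjusted p = 0.0599 to 0.269 and 0.066 to 0.258), and MFGE8 without either WT replicate (adjusted p = 0.0575 and 0.0742).

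Known regulators of PD-L1 were mostly without a call. Of 27 listed, 26 were tested, 2 rose (7.69%) and 5 fell (19.2%), with a median log2 change of -0.05. STAT3, a transcription factor activated by cytokine receptors, fell from 55.7 and 54.8 FPKM in WT to 30.1 and 29.1 FPKM in KO, 1.87-fold lower (log2 -0.88, SE 0.13, adjusted p = 0.0115 by limma). MYC, a growth-promoting transcription factor, was 1.89-fold lower, and SPOP, an adaptor for PD-L1 ubiquitination, 1.63-fold lower. IRF1, which binds elements of the kind printed for CD274 and was chosen after its values were seen, stood at 4.50 and 3.37 FPKM (adjusted p = 0.139 by limma). Without WT replicate 1 the calls of STAT3, MYC and SPOP were lost (adjusted p = 0.0971 to 0.216), as were those of STAT3 and SPOP without WT replicate 2 (adjusted p = 0.0807 and 0.136) and those of MYC and SPOP without either KO replicate (adjusted p = 0.056 to 0.0656).

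CD24 carries sialylated glycans on a GPI anchor, and both sets of enzymes were examined. Of 16 tested among 18 sialic acid genes, 4 fell (25%) and 0 rose, with a median log2 change of -0.15. ST6GALNAC4, a sialyltransferase acting on O-glycans, fell from 44.2 ± 2.57 to 12.7 ± 0.132 FPKM (SD of n = 2 in each group, log2 -1.72, SE 0.13, adjusted p = 0.00342 by limma). GNE, the enzyme that begins sialic acid synthesis, was 2.15-fold lower, ST3GAL4 1.78-fold and ST6GALNAC6 6.78-fold lower (11.6-fold without KO replicate 2). ST6GALNAC6 passed the filter through its WT libraries alone, so it could be called only as a fall. With a filter at 5 FPKM 2 genes of the list fell. The call of GNE was lost without WT replicate 1 (adjusted p = 0.0717), ST3GAL4 without any 1 library (adjusted p = 0.0535 to 0.193) and ST6GALNAC6 without any but KO replicate 2 (adjusted p = 0.0511 to 0.0585).

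Of 27 tested among 28 GPI anchor genes, 4 rose (14.8%) and 3 fell (11.1%), shares near those over all tested genes, with a median log2 change of -0.03. GPAA1, a subunit of the complex that attaches the anchor to proteins, rose 2.50-fold from 22.04 ± 0.698 to 55.1 ± 4.99 FPKM (SD of n = 2 in each group, limma adjusted p = 0.00561). PIGM, a mannosyltransferase of the anchor, rose 2.49-fold, while PIGV, another, was 2.05-fold lower and DPM2, a subunit of the enzyme that makes the mannose donor, 2.31-fold lower. Without WT replicate 1 the calls of PIGM, PIGV and DPM2 were lost (adjusted p = 0.0654 to 0.0968), as was that of PIGV without WT replicate 2 (adjusted p = 0.0515).

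Other GPI-anchored proteins did not share one direction. Of 38 listed, 22 were tested, 2 rose (9.09%) and 5 fell (22.7%), with a median log2 change of -0.32. CNTN1, a neural adhesion molecule, rose 3.36-fold, from 29.3 and 25.8 FPKM in WT to 110.4 and 74.9 FPKM in KO (limma adjusted p = 0.00778). EFNA1, an ephrin ligand, was 3.32-fold lower, and CD14, a lipopolysaccharide co-receptor, 2.96-fold lower, and ULBP2 belongs here too. CD24 was higher in KO than in WT by a larger ratio than CNTN1, and that difference was not tested.

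Among 16 tested hyaluronan and CD44-related genes of 26 listed, 3 rose (18.8%) and 4 fell (25%), with a median log2 change of -0.03. HMMR, a hyaluronan-binding protein of the mitotic spindle, rose 20.5-fold from 0.459 and 1.02 FPKM to 15.3 and 15.1 FPKM (limma adjusted p = 0.00246, 33.03-fold without WT replicate 2). RDX, radixin, which links CD44 to actin, rose 2.05-fold. CEMIP, which takes part in hyaluronan breakdown, was 3.78-fold lower, and SRGN, a proteoglycan that binds CD44, 1.92-fold lower. RDX and SRGN lost their calls without either WT replicate (adjusted p = 0.0677 to 0.106) and CEMIP without any 1 library (adjusted p = 0.0599 to 0.124).

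Receptors for these ligands were scarce, with 16 of 19 below 1 FPKM in every library. Of the 3 tested, 1 rose (33.3%, against 12.1% of all tested genes) and 0 fell. SIGLEC10, the CD24 receptor, had 1 to 3 reads per library, SELP, which also binds CD24, at most 1, and PDCD1, the receptor of PD-L1, at most 1. SIRPA, the CD47 receptor, stood at 13.2 and 12.5 FPKM in WT and at 13.8 and 14.1 FPKM in KO (limma adjusted p = 0.567). LAG3, an inhibitory receptor of T cells, rose from 0.359 and 0.499 to 1.76 and 1.82 FPKM (limma adjusted p = 0.0151, lost without WT replicate 1 at 0.0696 and without KO replicate 2 at 0.0506). LAG3 passed the filter through its KO libraries alone, so it could be called only as a rise, and with no filter on low values 0 receptors rose. PVRIG, a receptor of NECTIN2, stood at 0.621 and 1.41 FPKM (adjusted p = 0.082), and CD96, a receptor of PVR, had 0 and 4 reads in WT and 61 and 62 in KO, below the filter. SIGLEC10, SELP and PDCD1 were chosen after their values were seen.

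Surface and enzyme markers of progenitors that are often read together with CD24 also diverged. Of 16 listed, 12 were tested, 2 rose (16.7%) and 4 fell (33.3%), with a median log2 change of 0.14. ALDH1A1, an aldehyde dehydrogenase, rose 4.12-fold from 515 and 718 FPKM to 2465 and 2618 FPKM (limma adjusted p = 0.00628). ALDH1A3, its relative, was 7.60-fold lower (adjusted p = 0.00199), SOX9, a progenitor transcription factor, 2.99-fold lower (adjusted p = 0.00414), and ABCG2, a drug efflux pump, 2.36-fold higher (adjusted p = 0.0125, lost without either WT replicate at 0.0614 and 0.0632).

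**Figure D4:**
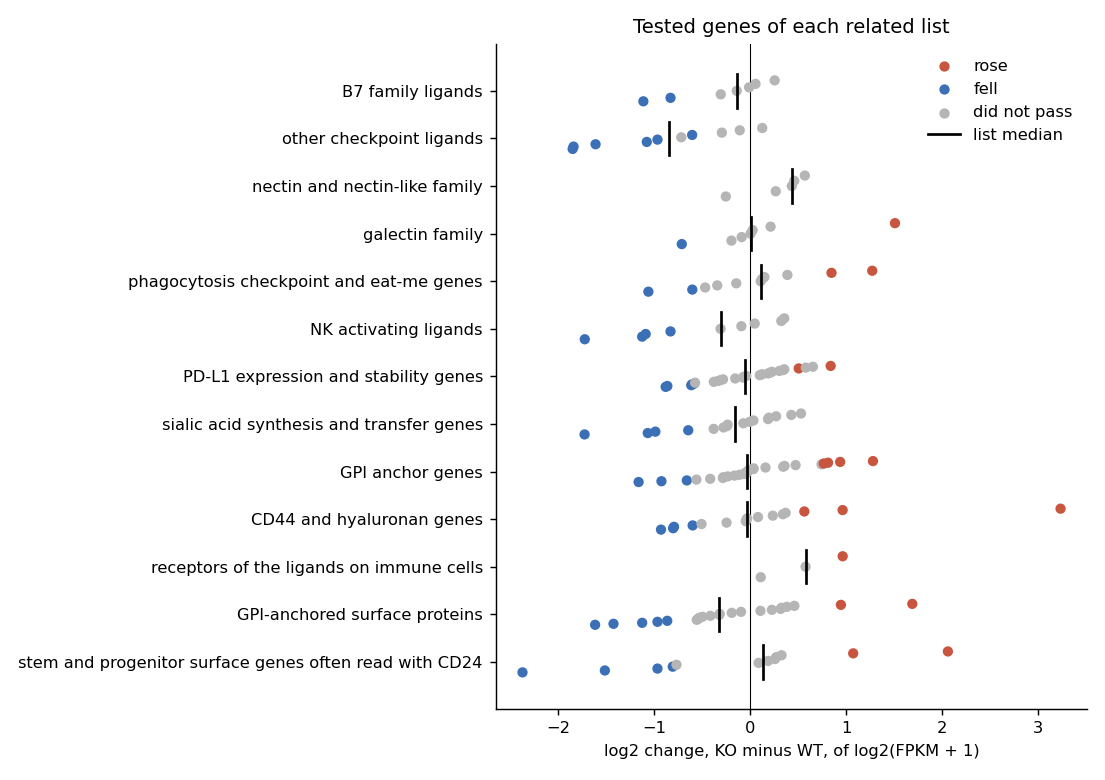
Log2 change, KO minus WT, of each tested gene in the 13 related lists (points, red rose, blue fell, grey did not pass limma's adjusted p under 0.05), with a black bar at each list's median. In the checkpoint and NK ligand lists the called genes lie to the left (6 and 4 fell, 0 rose), and HMMR stands alone at 3.24 in the hyaluronan list. CEACAM5 and RAET1L, among those that fell, passed the filter through the WT libraries alone.

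The 5 protein-coding genes whose pattern over the 4 libraries was most like that of CD24 were TM4SF4, DLGAP5, KIF20A, BAAT and CLDN2. Likeness was the root mean square difference between log2(FPKM + 1) values centred on each gene's own mean, and it ran from 0.148 for TM4SF4 to 0.315 for CLDN2. TM4SF4, a membrane protein of the tetraspanin-like family, stood at 1.56 and 2.68 FPKM in WT and at 45.9 and 52.9 FPKM in KO, a ratio of 23.3. DLGAP5, a spindle protein, had a ratio of 22.4 and KIF20A, a mitotic kinesin, 27.4, and without WT replicate 2 these were 37.2 and 47.8. BAAT, which conjugates bile acids, had a ratio of 73.1 (138 without WT replicate 2), resting on 6 and 15 reads in WT. CLDN2, a tight junction protein, had a ratio of 47.05, resting on 41 and 41 reads in WT. On the log2(FPKM + 1) scale genes scarce in WT differ by less than their ratios, so likeness here is not likeness of ratio. The measure rests on these 4 libraries alone, and genes chosen for likeness to CD24 are higher in KO by that choice. BAAT and CLDN2 passed the filter through their KO libraries alone, so they could be called only as a rise. In WT these 5 genes lay at or below 2.68 FPKM, against 22.8 FPKM or more for CD24.

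**Figure D5:**
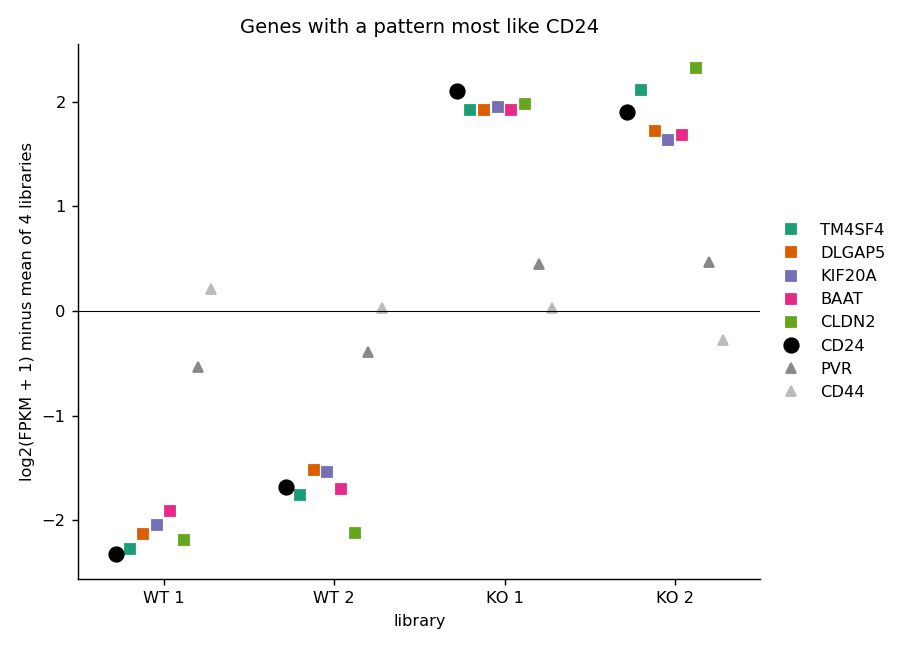
Values of log2(FPKM + 1) in each library minus the gene's mean over the 4 libraries, for CD24 (black), the 5 genes most like it (squares), PVR and CD44 (triangles). CD24 and the 5 genes lie below the line in WT and above it in KO, and PVR does so by a smaller distance.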

How the data were processed

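RNA sequencing libraries labelled HFL1 were compared, 2 labelled WT and 2 labelled KO, and their marker levels go against a fibroblast line. Reads were aligned as pairs with HISAT2 2.0.5, per the labels' protocols, and the submitters' processing notes list the builds hg38 and mm10. The values are FPKM that the authors deposited, and the counting tool, annotation and strand setting, and any scaling across libraries, were not given in the sources used here. Identifiers and coordinates of all 58735 genes equalled GENCODE release 29 on GRCh38. FPKM times gene length was a whole multiple of 1 step per library for 100% of values (tolerance 0.01), which gave the reads. Floors at 3 reads cover counting error only.

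Genes with at least 1 FPKM in at least 2 libraries were fitted as log2(FPKM + 1) with limma 3.58.1 in R 4.3.3, with an intensity-dependent prior, no replicate block and Benjamini-Hochberg adjustment. Log2 changes are on that scale, which understates low genes. Folds are ratios of mean FPKM. Transcripts were aligned with BLAST 2.17.0. The members and lists were chosen with earlier results of these data known. Named genes were the members, CALU, up to 4 genes of each list (the called ones with the largest log2 change, or, with fewer than 2 called, those of highest mean FPKM), the 5 genes most like CD24 and defining cell markers. Other genes, further cell markers included, were picked with their values in view. The result for 1 gene that the rule took is not reported here. Of the hyaluronan list, 25 of 26 symbols were in the table. On simulated data with 2 libraries per group and 13955 genes tested, 40 of 40 genes changed 4-fold, 12 of 40 changed 2-fold and 0 of 40 changed 1.5-fold were recovered. The simulation assumed a dispersion of 0.02 and independent libraries, and it changed far fewer genes than were called in the data. Its recovery may therefore differ from that in these data.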

Additional observations from a re-analysis of the deposited data

How the results depend on the processing

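Counts of calls depended on the filter and on the WT libraries. Over all genes 1711 rose and 1572 fell. With no filter on low values these were 183 and 193, with a filter at 5 FPKM 1041 fell, and leaving out 1 library gave 505 to 1321 rising and 537 to 1260 falling. Replicate numbers are shared across groups, but nothing says that they pair the libraries: differences between replicates 1 and 2 correlated at 0.41 across genes, and with a replicate block 2968 rose and 2577 fell. Of 45 called genes that the naming rule took, 28 lost their call with no filter, 22 without WT replicate 1, 16 without WT replicate 2, 9 without KO replicate 1 and 8 without KO replicate 2. None of them changed direction under any alternative run. With total-read scaling the KO to WT ratios of the members stayed within the ranges that leaving out 1 library gave. With quantile normalization, run for the 6 tested, PVR at 1.81 and NECTIN2 at 1.01 fell below their ranges, and the others stayed within theirs. PDCD1LG2 without KO replicate 1 gave no ratio. Adding the reads of related copies, an alternative chosen after seeing the data, gave 16.3 for CD24 and 1.36 for LGALS9.

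With no filter, the falling genes of the lists numbered 1 (B7), 2 (other checkpoint ligands), 0 (galectins), 0 (engulfment), 1 (NK ligands), 0 (PD-L1 regulators), 1 (sialic acid), 0 (GPI anchor), 0 (hyaluronan), 2 (GPI-anchored proteins) and 2 (progenitor). Rising ones then numbered 0 for galectins, engulfment, PD-L1 regulators, receptors, GPI-anchored proteins and progenitor genes, and 1 for GPI anchor and hyaluronan genes. With the filter at 5 FPKM, 1 B7, 2 NK ligand, 2 sialic acid and 1 hyaluronan gene fell, and 0 receptors and 1 GPI-anchored protein rose. With a replicate block, 2 nectin relatives, 5 PD-L1 regulators, 2 sialic acid and 7 GPI anchor genes rose and 9 GPI-anchored proteins fell. With voom on recovered reads, 4 PD-L1 regulators and 1 sialic acid gene rose, and 5 GPI anchor genes and 8 GPI-anchored proteins fell. A pseudocount of 0.1 and total-read scaling each left 1 rising engulfment gene, quantile normalization and total-read scaling 1 rising PD-L1 regulator, and a robust prior gave 1 rising sialic acid gene. The causes were not tested, except that fewer genes are tested at 5 FPKM.

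Leaving out 1 library gave these ranges. Falling genes were 1 to 1 for B7, 4 to 6 for other checkpoint ligands, 0 to 1 for galectins, 0 to 1 for engulfment, 2 to 3 for NK ligands, 0 to 2 for PD-L1 regulators, 1 to 3 for sialic acid, 0 to 3 for GPI anchor, 0 to 1 for hyaluronan, 2 to 5 for GPI-anchored proteins and 2 to 4 for progenitor genes. Rising genes were 0 to 1 for nectin relatives, galectins, engulfment and receptors, 0 to 2 for PD-L1 regulators, 1 to 4 for GPI anchor, and 1 to 2 for hyaluronan, GPI-anchored and progenitor genes. Ratios of the members ranged from 13.3 to 21.03 for CD24, 0.77 to 0.99 for CD47, 0.42 to 0.50 for CD274, 1.36 to 1.55 for CD276 and 1.84 to 2.03 for PVR. They ranged from 1.03 to 1.14 for NECTIN2, 2.63 to 3.82 for LGALS9 and 0.76 to 0.94 for CD44. For PDCD1LG2 the range was 0.25 to 0.71 over the runs that gave a ratio, which excludes the run without KO replicate 1. Depth limits CD274, PDCD1LG2 and LGALS9, each at 64 reads or fewer in any library.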
